A study of Mus musculus with 6 samples.

Results

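Translation factors are the proteins that load a ribosome onto a messenger RNA and then move it codon by codon. Their transcripts were taken by gene name. Every gene whose symbol starts with Eif or Eef and a digit was kept, without the eIF2 kinases (Eif2ak) and without rows named as pseudogenes, which gave 60 of the 26754 genes in the deposited tables. They fall into 13 genes of start codon selection and the ternary complex, 5 of the exchange factor eIF2B, 14 of the scaffold eIF3, 11 of the cap-binding complex eIF4, 4 that bind eIF4E, 3 of eIF5A and eIF6, 6 elongation factors, 3 enzymes that modify elongation factors, and Eif2c5, which GENCODE M21 lists as a long non-coding RNA. Each of the others is annotated there as protein-coding. The groups follow gene symbols, so a group can hold genes with other roles, such as Eef1e1 and Eif4g2, described below.

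In background, a protein is started when eIF2 carries the initiator tRNA to the small ribosomal subunit, which eIF3 holds open while eIF4E, eIF4G and eIF4A bring in the capped messenger RNA. eIF1 and eIF1A check the start codon, eIF5 and eIF5B let eIF2 leave and the large subunit join, and eIF2B recharges eIF2 with GTP. Elongation then needs eEF1A to deliver each aminoacyl-tRNA, the eEF1B subunits to recharge eEF1A, and eEF2 to shift the ribosome along. T cells raise protein synthesis when they are activated, and the kinase mTORC1 controls both initiation, through the eIF4E-binding proteins, and elongation, through eEF2 kinase.

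The libraries come from subcutaneous tumours of B16, a mouse melanoma cell line, grown in female C57BL/6J mice aged 6 to 8 weeks. The labels name no treatment and no genetic change. Cells were taken out of the tumours on day 14 (3 libraries) or day 7 (3 libraries) after implantation and selected on magnetic beads against CD8a, a chain of the co-receptor of cytotoxic T cells. Poly-A RNA was sequenced in strand-specific libraries and deposited as RPKM, the reads of a gene divided by its length in kilobases and by the library's reads, scaled to 1000000. The labels give the comparison of day 14 with day 7, and the title concerns LFA-1, an integrin, its control by IL-2 and STAT5, and anti-PD-1 therapy.

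Libraries held 11385106 to 13316522 reads in genes on day 14 and 6523019 to 9313078 on day 7. A read was present in 18318 to 19053 genes on day 14 and 13133 to 13806 on day 7. With each library thinned to 6500000 reads, it was 17936 to 18510 genes on day 14 and 13072 to 13805 on day 7. Over all genes, day 7 replicates 1 and 2 were nearly as close as sampling alone would leave them. A chi-square ratio per fragment, in which 1 means sampling noise only, had a median over genes of 1.11 between them, 40.9 and 44.4 between each of them and replicate 3, and 4.05 to 4.43 between day 14 libraries. Over the factor genes alone this median was 2.23 between day 7 replicates 1 and 2, which is above sampling noise. It was 29.3 and 34.0 between each of them and replicate 3. Day 7 replicates 1 and 2 were averaged and counted as 1 sample, which leaves 3 samples of day 14 and 2 of day 7. Whether replicates are separate animals is not in the labels, and p-values therefore measure only the spread between these samples, which may be technical. The label of CD8+ T cells was set against marker genes. The summed RPKM of 12 T cell genes was 101.3 to 117.5 on day 14 and 385.6 to 405.2 on day 7, and that of Cd8a and Cd8b1 was 38.2 to 47.3 on day 14 and 164.5 to 165.4 on day 7. Dct, an enzyme of melanin synthesis, alone stood at 8577 to 9681 RPKM on day 14 and 4431 to 4726 on day 7. The 7 melanocyte genes held 2.42% to 2.65% of reads on day 14 and 1.34% to 1.41% on day 7, and the 10 macrophage genes summed to 1370 to 1411 RPKM on day 14 and 831.9 to 950.3 on day 7. No gene of these 4 lists was at 0 in any library. The 5 B cell genes summed to 1.70 to 1.93 RPKM on day 14 and 2.98 to 6.77 on day 7, and the 7 stroma and endothelium genes to 5.04 to 5.58 on day 14 and 5.61 to 8.55 on day 7. Among genes tested, 6 of 11 T cell, 2 of 2 CD8 and 4 of 4 natural killer genes were lower on day 14, and 3 of 7 melanocyte, 5 of 10 macrophage and 1 of 6 cycling genes were higher (limma, adjusted p under 0.05). Every value below is therefore a level in a mixture of cells, in which fewer cells of a type and less RNA per cell cannot be told apart, and the part of cell composition in these differences was not tested.

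Of the 60 factor genes 48 were tested and 1 passed, Eef1a1, which fell on day 14. Genes were tested if they had a mean of 20 or more reads per 1000000 (CPM), using limma on log2(RPKM + 1) with Benjamini-Hochberg adjustment over all 6691 genes tested. The 1 call is 2.08% of the 48, where 4.92% of all genes tested were called, 1.76% higher and 3.15% lower. At an unadjusted p under 0.05 there were 10 of the 48 factor genes (20.8%), as against 19.7% of all genes tested, and limma-voom on the recovered reads called 9 (18.8%), as against 19.0% of all genes. Both shares are near those of all genes. Without the precision weights of the fit 9 factors were called, where 15.1% of all genes were, and with weights from a trend of the fourth root of variance 4 were called, where 7.55% of all genes were. Of the 48, 32 had a log2 fold change above 0 (66.7%) and the median was 0.17, against 61.2% above 0 and a median of 0.16 over all genes tested. In 15 factor genes all 3 day 14 libraries lay above all 3 of day 7 (31.2%), as in 31.6% of all genes tested, and in 9 they lay below (18.8%), as in 17.8% of all genes tested. The shares of genes with separate ranges are thus near those of all genes in both directions.

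These figures depend on how libraries are scaled. Calls over all genes were 118 higher and 211 lower on day 14 as deposited, and 59 higher and 298 lower with median-of-ratios factors, which shift the all-gene median of the log2 fold change by -0.17 and leave 49.0% of all genes, and 24 of the 48 factors, above 0. Per T cell transcript, that is after division by the summed 12 T cell genes, the median shifts by 1.70 and all 48 factor genes were called higher, as were 6284 of the 6691 genes tested. Directions given below are for the deposited scaling, a share of all reads, unless another scaling is named.

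Together the 60 genes took 2.33% ± 0.0147 of reads on day 14 (SD, n = 3) and 2.25% ± 0.0642 on day 7 (SD, n = 2). Without Eef1a1, which alone held 0.492% ± 0.0181 on day 14 and 0.623% ± 0.0246 on day 7, the other 59 took 1.84% ± 0.00785 on day 14 and 1.62% ± 0.0396 on day 7. Summed as RPKM, where each gene is set per length, the 60 genes lay the other way, at 6782 ± 66.8 on day 14 (SD, n = 3) and 7071 ± 191 on day 7 (SD, n = 2), a ratio of 0.959, while the ratio of the shares of reads was 1.04. Without Eef1a1 the summed RPKM was 4810 ± 9.41 on day 14 and 4572 ± 91.9 on day 7, a ratio of 1.05. By RPKM, which compares genes per length, the order of the 7 highest factors was the same on both days: Eef1a1, Eif3a, Eef2, Eef1g, Eef1b2, Eif3c and Eif3h. The levels of tested factors spanned 309-fold to 525-fold within a day 14 library and 570-fold to 1454-fold within a day 7 library.

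**Figure D1:**
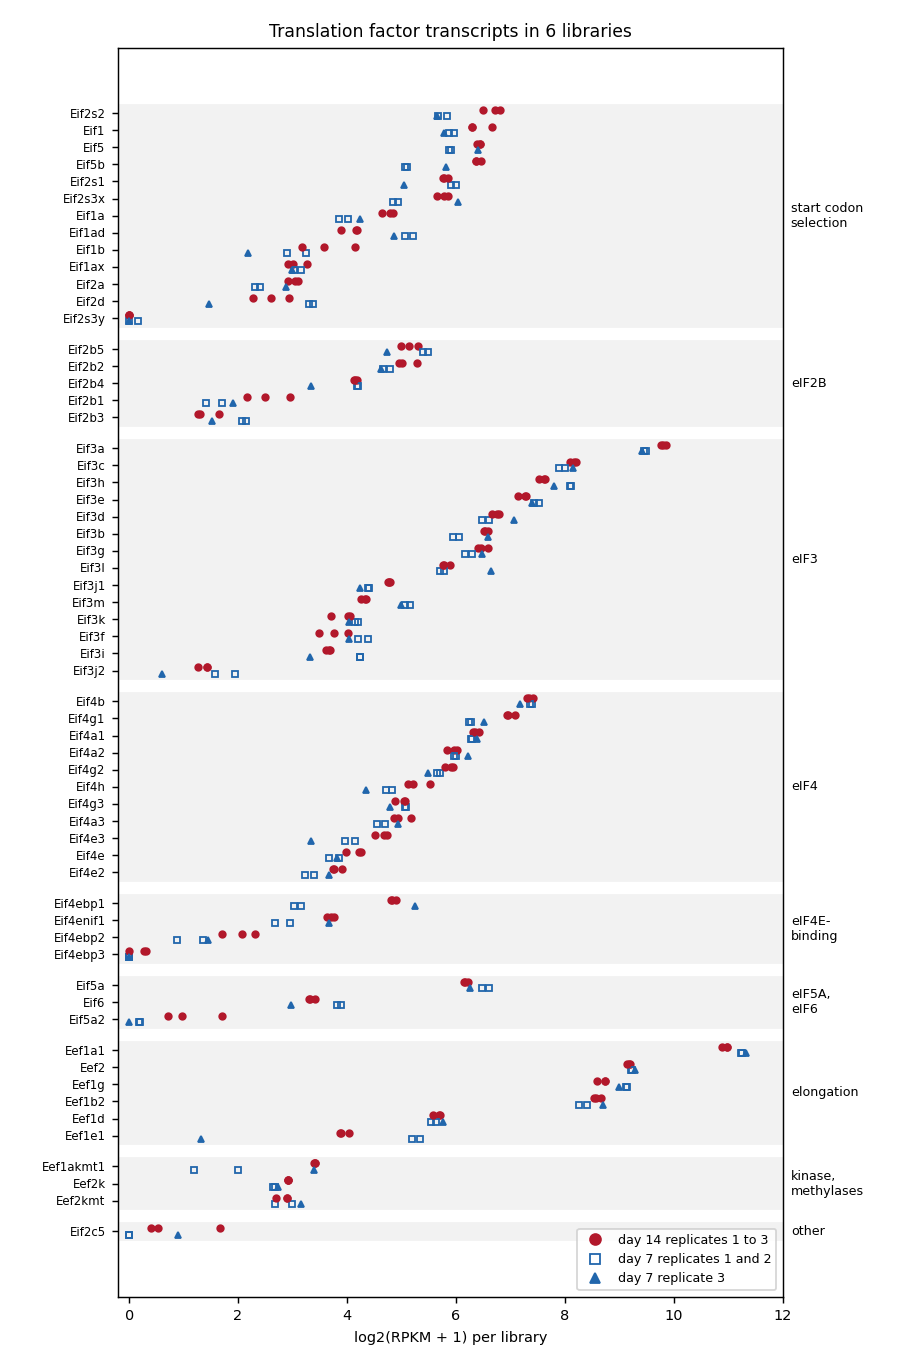
Level of each of the 60 factor genes in every library, on a log2(RPKM + 1) axis, grouped by role and ordered within a role by the day 14 mean. Red circles are the 3 day 14 libraries, open squares day 7 replicates 1 and 2, and blue triangles day 7 replicate 3. Eef1a1 is farthest right, with its 3 day 14 libraries at 1889 to 2022 RPKM, all left of the day 7 libraries.

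Of the elongation factors, 1 of 5 tested was called, where 4.92% of all genes tested were. Eef1a1 and Eef1g had an unadjusted p under 0.05 in limma, as did 19.7% of all genes tested. Both were called lower by limma-voom, which called 19.0% of all genes. No test sets the 5 genes apart from all genes. Eef1a1, which carries aminoacyl-tRNA to the ribosome (chr9:78478449-78489151, minus strand, GRCm38), had 2006, 2022 and 1889 RPKM in day 14 replicates 1 to 3, against 2456 and 2403 in day 7 replicates 1 and 2 and 2569.5 in replicate 3. Each day 14 library lay below each day 7 library. The mean was 1972 ± 72.7 RPKM on day 14 (SD, n = 3) and 2499.7 ± 98.8 on day 7 (SD, n = 2), a ratio of 0.789. The log2 fold change came to -0.34 (SE 0.0698, 95% interval -0.50 to -0.19, limma, adjusted p = 0.0183), which is 0.50 below the median of all genes tested. The call was lost without day 14 replicate 1 (limma, adjusted p = 0.0703), without day 7 replicate 3 (adjusted p = 0.0911) and without the filter on low values (adjusted p = 0.0558). Per T cell transcript the direction turned, with a log2 fold change of 1.51. A small predicted gene on the same strand, Gm26377, overlaps 4.33% of the length of Eef1a1, and whether the 2 share reads was not tested.

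The partners of eEF1A were not called in the main fit. Eef1g, the gamma subunit of its exchange factor eEF1B (chr19:8967041-8978479, plus strand), had 423.5, 426.0 and 382.9 RPKM on day 14, against 556.4, 562.5 and 509.5 on day 7. The day 14 values lay below all of day 7, with a log2 fold change of -0.38 (SE 0.112, 95% interval -0.63 to -0.13, limma, adjusted p = 0.0854). With median-of-ratios factors, Eef1g was called lower (limma, log2 fold change -0.57, adjusted p = 0.0166), and per T cell transcript its log2 fold change was 1.47. It was also called lower by limma-voom (adjusted p = 0.0057), at 50 CPM, without the filter and without weights. The same held with 6 libraries counted singly, with or without the replicate block. Eef1b2, a subunit that recharges eEF1A, had 379.6, 369.4 and 405.6 RPKM on day 14 and 337.9, 304.8 and 417.2 on day 7. Those ranges overlap, with day 7 replicate 3 the highest of the 6 libraries, and the log2 fold change was 0.07 (SE 0.136). With median-of-ratios factors it was -0.12. Eef1d, the delta subunit, stood at 49.5 ± 2.43 RPKM on day 14 (SD, n = 3) and 49.97 ± 4.33 on day 7 (SD, n = 2), with a log2 fold change of -0.01 and a 95% interval of -0.50 to 0.48.

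Eef2, the translocase, had 582.3, 588.2 and 567.1 RPKM on day 14, against 593.7, 598.7 and 626.4 on day 7. All day 14 libraries were lower, but by little: the ratio of means was 0.948 and the 95% interval of the log2 fold change ran from -0.29 to 0.14. Eef2k, the kinase that inhibits eEF2, had 6.57, 6.55 and 6.55 RPKM on day 14 and 5.39, 5.28 and 5.67 on day 7, with separate ranges and a log2 fold change of 0.22 (SE 0.396, limma, adjusted p = 0.814). Summed over the 6 elongation factor genes, the level was 3411 ± 90.6 RPKM on day 14 (SD, n = 3) and 4084 ± 131 on day 7 (SD, n = 2), a ratio of 0.835, and most of that difference of -673.5 RPKM is Eef1a1 itself, at -527.7.

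Among genes of start codon selection, 0 of 11 tested were called (3 at an unadjusted p under 0.05 in limma, 2 higher and 1 lower by limma-voom), and the log2 fold change was above 0 in 10 of 11, or 9 of 11 with median-of-ratios factors. Over all genes tested, 19.7% had such a p and 61.2% a log2 fold change above 0, or 49.0% with median-of-ratios factors, and no test sets the 11 genes apart from these. Eif2s2, the beta subunit of eIF2 (chr2:154871410-154892935, minus strand), had 103.9, 89.4 and 110.6 RPKM on day 14, against 56.2, 49.98 and 49.2 on day 7. All day 14 libraries were higher, at 1.98 times the day 7 mean, and the log2 fold change was 0.97 (SE 0.270, 95% interval 0.37 to 1.56, limma, adjusted p = 0.0685). Eif5b, the GTPase that joins the ribosomal subunits (chr1:37998010-38055579, plus strand), had 87.1, 81.9 and 81.8 RPKM on day 14 and 33.3, 32.5 and 55.7 on day 7. Its day 14 libraries also lay above all of day 7, where replicate 3 was 1.69 times the other pair. The log2 fold change was 0.95 (SE 0.249, 95% interval 0.40 to 1.498, limma, adjusted p = 0.0557). The opposite-strand gene Rev1 shares 16.8% of the length of Eif5b at 4.65 to 5.64 RPKM on day 14 and 3.78 to 4.67 on day 7.

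In the other eIF2 subunits the ranges overlapped. Eif2s1, the alpha subunit that stress kinases phosphorylate, had 54.1, 53.6 and 56.6 RPKM on day 14 and 63.4, 59.0 and 32.1 on day 7, so day 14 lay between the day 7 libraries. Its log2 fold change was 0.30 (SE 0.260), and -0.16 without day 7 replicate 3. Eif2s3x, the gamma subunit on the X chromosome, had 54.1, 49.4 and 56.6 RPKM on day 14 and 27.7, 29.6 and 65.0 on day 7. Here day 7 replicate 3 was the highest library and the other pair the lowest, and the log2 fold change of 0.30 (SE 0.299) became -0.28 against replicate 3 alone. Its Y-linked copy Eif2s3y was listed at 0 in all libraries except day 7 replicate 1, at 0.121 RPKM. The study's description gives the mice as female.

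Eif1, which guards the start codon, had 77.5, 99.8 and 77.2 RPKM on day 14, against 61.4, 57.8 and 54.2 on day 7. The ranges were separate, yet the 95% interval of its log2 fold change ran from -0.10 to 1.22 (limma, adjusted p = 0.335). Eif1a and Eif1ax encode near-identical forms of eIF1A and may share reads. Eif1a stood at 26.1 ± 1.89 RPKM on day 14 (SD, n = 3) and 16.1 ± 2.44 on day 7 (SD, n = 2), and Eif1ax at 7.38 ± 1.04 on day 14 and 7.27 ± 0.396 on day 7. Eif5, which makes eIF2 hydrolyse its GTP, had 85.8, 82.2 and 85.8 RPKM on day 14 and 58.9, 57.8 and 83.8 on day 7, so that replicate 3 of day 7 stood with the day 14 libraries and the ranges overlap (log2 fold change 0.27, SE 0.209). In Eif1ad, named for a domain it shares with eIF1A (chr19:5366813-5371511, plus strand), day 14 was the lower side, with 16.9, 13.8 and 17.1 RPKM on day 14 and 36.2, 32.6 and 27.9 on day 7. The groups were separate and the log2 fold change was -0.93 (SE 0.298, limma, adjusted p = 0.116), turning to 0.85 per T cell transcript. It was the only 1 of the 11 with a log2 fold change below 0.

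**Figure D2:**
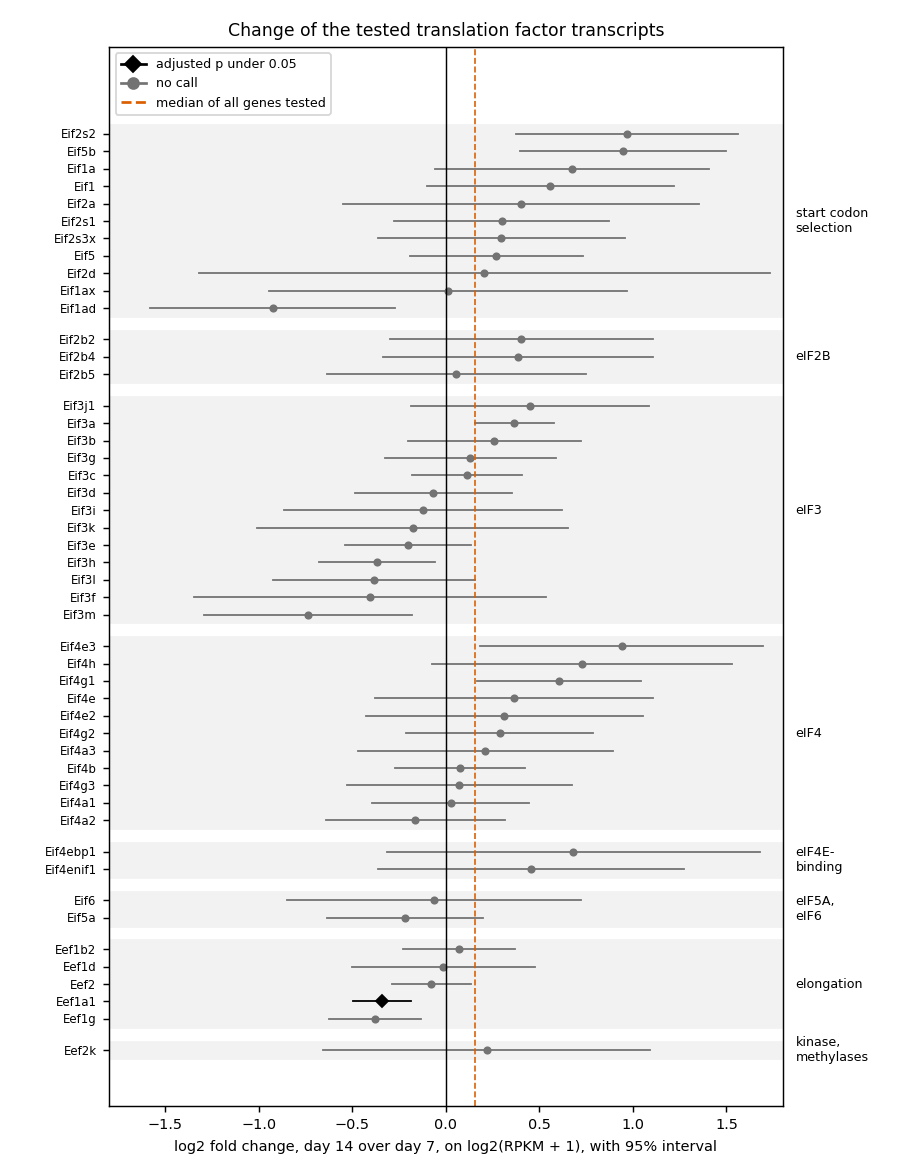
Log2 fold change of day 14 over day 7 on log2(RPKM + 1) for the 48 tested factor genes, with limma's 95% interval as bars, grouped by role. The black diamond is Eef1a1 at -0.34, the only call at an adjusted p under 0.05, grey circles are the others, and the dashed line is the median of all genes tested at 0.16.

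For eIF2B, 0 of 3 tested subunits were called, and the same count held at an unadjusted p under 0.05 and by limma-voom. Eif2b5, the catalytic epsilon subunit (chr16:20498817-20509955, plus strand), had 30.7, 38.6 and 34.3 RPKM on day 14 and 43.8, 41.3 and 25.6 on day 7, with day 14 between the day 7 libraries. Its log2 fold change of 0.06 (SE 0.314) was -0.30 without day 7 replicate 3 and -0.13 with median-of-ratios factors. Eif2b2, the beta subunit, had 37.8, 31.1 and 29.9 RPKM on day 14 and 24.4, 26.7 and 23.6 on day 7, a separate but uncalled difference (log2 fold change 0.40, SE 0.318). Eif2b1 and Eif2b3, the alpha and gamma subunits, were at 1.41 to 6.74 RPKM on day 14 and 1.65 to 3.43 on day 7 and did not reach the filter.

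The subunits of eIF3 differed in the sign of their log2 fold change. None of the 13 tested was called (3 at an unadjusted p under 0.05 in limma, 1 higher and 1 lower by limma-voom), with 5 log2 fold changes above 0 and 8 below, or 3 and 10 with median-of-ratios factors, beside the all-gene shares of 19.7% at such a p and 61.2% (49.0% with those factors) above 0. Eif3a, the largest subunit and the second most abundant factor transcript (chr19:60761116-60790693, minus strand), had 898.0, 872.9 and 925.3 RPKM on day 14, against 718.4, 699.0 and 684.9 on day 7. Both days were tight and separate, at 898.7 ± 26.2 on day 14 (SD, n = 3) and 696.8 ± 16.8 on day 7 (SD, n = 2). The log2 fold change of 0.37 (SE 0.0948, 95% interval 0.16 to 0.58) had an adjusted p of 0.0529 in limma, and of 0.00056 by limma-voom. Adjusted p-values ran from 0.00056 to 0.381 over the alternatives tried other than per T cell transcript, highest with median-of-ratios factors, where the log2 fold change was 0.18.

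Eif3m, a scaffold subunit with a PCI domain (chr2:104999656-105017080, minus strand), lay on the lower side. It had 19.3, 18.2 and 19.0 RPKM on day 14, against 34.7, 32.3 and 30.7 on day 7. Day 14 was 0.587 of day 7, with a log2 fold change of -0.74 (SE 0.252, limma, adjusted p = 0.137). Eif3h, a subunit with an MPN domain, had 183.0, 197.3 and 195.0 RPKM on day 14 and 273.8, 276.6 and 223.4 on day 7, with the groups separate and a log2 fold change of -0.37 (SE 0.141, limma, adjusted p = 0.1802). Eif3e and Eif3f had all day 14 libraries below day 7 as well, at 149.3 ± 7.37 and 12.7 ± 2.46 RPKM on day 14 (SD, n = 3) and 171.9 ± 7.09 and 17.0 ± 2.17 on day 7 (SD, n = 2).

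Budding yeast has a smaller eIF3 made of the a, b, c, g and i subunits, and mammals add d, e, f, h, k, l and m. This split was drawn after the values were seen and has no test. Of the yeast-like subunits, 3 of 5 (Eif3a, Eif3c and Eif3g) had a day 14 mean above both day 7 samples and 0 below both. On log2(RPKM + 1), Eif3c and Eif3g lay only 0.0128 and 0.0074 above day 7 replicate 3. Their ranges overlap between days, and both turned below 0 with median-of-ratios factors. Of the added subunits, 0 of 7 were above both and 5 of 7 below both, with Eif3d and Eif3l the exceptions. Eif3l had 58.3, 54.0 and 53.4 RPKM on day 14 and 51.6, 53.9 and 99.0 on day 7, and its difference was 0.07 against the mean of replicates 1 and 2 but -0.83 against replicate 3. Eif3i and Eif3b also differed in sign between the day 7 samples. Per T cell transcript all 13 were above 0, as were 6626 of all 6691 genes tested. Against all genes tested, 40.7% had a day 14 mean above both day 7 samples and 24.4% below both, and for the 48 factors it was 41.7% and 22.9%.

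**Figure D3:**
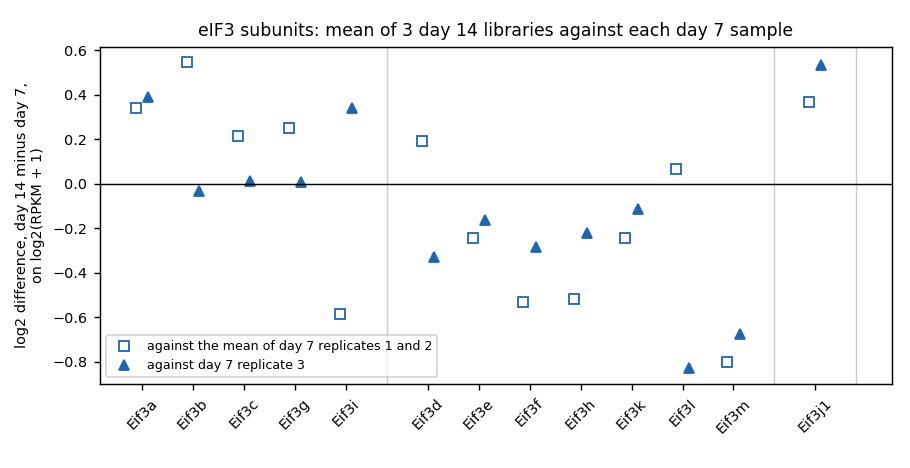
Difference of the day 14 mean from each day 7 sample on log2(RPKM + 1), for 13 eIF3 subunits. Open squares are against the mean of day 7 replicates 1 and 2, and triangles against replicate 3. The left block holds the subunits that budding yeast also has in its core, the middle block those that mammals add, and the right block Eif3j1. Eif3m lies at -0.80 and -0.67, and Eif3a at 0.34 and 0.39.

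Although the subunits work in a complex, their transcripts were not at like levels. Over the 13 subunits without Eif3j2, the highest per length, Eif3a, stood 74.1-fold to 90.2-fold above the lowest within day 14 libraries and 41.5-fold to 76.6-fold within day 7 libraries. Eif3j1, a loosely bound subunit, had 26.2, 26.0 and 26.6 RPKM on day 14 and 20.3, 19.98 and 17.8 on day 7. Its near copy Eif3j2 was at 1.41 to 1.71 RPKM on day 14 and 0.516 to 2.85 on day 7, and reads may be shared between them. AL845457.1, on the same strand, overlaps 1.17% of the length of Eif3j1, at 502.3 to 551.5 RPKM on day 14 and 150 to 232.2 on day 7. The opposite-strand gene Spg11 overlaps 19.0% of that length. Whether either shares reads with Eif3j1 was not tested. Summed RPKM over the 14 eIF3 genes was 1952 ± 37.8 on day 14 (SD, n = 3) and 1830 ± 44.1 on day 7 (SD, n = 2).

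Among the genes grouped under eIF4, 0 of 11 tested were called (2 at an unadjusted p under 0.05 in limma, 2 higher by limma-voom). Log2 fold changes were above 0 in 10 of 11, or 7 of 11 with median-of-ratios factors. Over all genes tested, 19.7% had such a p and 61.2% (49.0% with those factors) lay above 0. In 6 of the 11 all day 14 libraries lay above day 7, as in 31.6% of all genes tested. Eif4g1, the scaffold that joins cap, helicase and eIF3 (chr16:20668313-20692884, plus strand), had 122.1, 134.0 and 123.9 RPKM on day 14, against 76.4, 74.7 and 90.8 on day 7. That is 1.52 times the day 7 mean, with a log2 fold change of 0.61 (SE 0.198, 95% interval 0.17 to 1.04, limma, adjusted p = 0.122). Eif4e3, a weak cap-binding relative of eIF4E, had 25.6, 24.6 and 21.8 RPKM on day 14 and 16.8, 14.6 and 9.14 on day 7 (log2 fold change 0.94, SE 0.343, limma, adjusted p = 0.161). The gene model Gm20696 on the same strand shares 14.8% of its length. Eif4h, which assists the helicase, had 45.2, 33.9 and 36.2 RPKM on day 14 and 27.4, 25.3 and 19.5 on day 7, separate but with an interval of the log2 fold change from -0.08 to 1.53.

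Eif4e itself, the cap-binding protein that limits initiation in many settings (chr3:138526179-138559696, plus strand), had 18.2, 17.6 and 14.8 RPKM on day 14 and 13.4, 11.796 and 13.1 on day 7. The ranges were separate, with a log2 fold change of 0.36 and a 95% interval of -0.38 to 1.11, which holds both no difference and a difference of more than 1 on that scale. Eif4g2, a relative of eIF4G that does not bind eIF4E, had 60.3, 58.9 and 54.4 RPKM on day 14 and 49.4, 51.6 and 44.0 on day 7 (log2 fold change 0.29, SE 0.227). In the helicases that unwind the messenger RNA the ranges overlapped. Eif4a1 had 84.5, 78.9 and 81.0 RPKM on day 14 and 77.7, 76.5 and 83.0 on day 7, and Eif4a2 had 61.6, 63.8 and 56.0 on day 14 and 63.4, 61.7 and 73.3 on day 7. The ratio of Eif4a2 to Eif4a1 was 0.691 to 0.808 in day 14 libraries and 0.807 to 0.883 in day 7 libraries. Several small nucleolar RNA genes lie inside the Eif4a2 model, and the opposite-strand gene Rfc4 overlaps 3.63% of its length. Whether any of them share its reads was not tested.

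The eIF4E-binding proteins compete with eIF4G for eIF4E until mTORC1 phosphorylates them. Neither of the 2 tested genes was called (0 at an unadjusted p under 0.05 and 0 by limma-voom). Eif4ebp1 (chr8:27260329-27276674, plus strand) had 29.0, 27.2 and 27.4 RPKM on day 14, against 7.20, 7.92 and 36.9 on day 7. The day 14 libraries were close to each other, while day 7 replicate 3 was 4.88 times the mean of the other pair and above all of day 14. The log2 fold change of 0.68 (SE 0.452, limma, adjusted p = 0.443) was 1.75 without replicate 3 (adjusted p = 0.0784) and -0.39 against replicate 3 alone (adjusted p = 0.7995). The ratio of Eif4ebp1 to Eif4e was 1.59, 1.55 and 1.85 on day 14, and 0.538 and 0.672 in day 7 replicates 1 and 2 but 2.82 in replicate 3. Eif4enif1, which carries eIF4E into the nucleus, also had its highest day 7 value in replicate 3, with 11.4, 12.6 and 11.98 RPKM on day 14 and 6.74, 5.43 and 11.65 on day 7. Eif4ebp2 was below the filter, with 3.93, 2.27 and 3.20 RPKM on day 14, above its 1.55, 0.842 and 1.72 on day 7.

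Day 7 replicate 3 stood apart from replicates 1 and 2 in some factors, and the cause was not tested. Its level differed from their mean by more than 1 on the log2 scale in 3 of 48 tested factors (6.25%), against 20.5% of all genes tested. These were Eif4ebp1, Eif2s3x and Eif2d, an alternative carrier of initiator tRNA, which had 3.82, 6.68 and 5.09 RPKM on day 14 and 9.38, 8.81 and 1.77 on day 7. Below the filter, Eef1e1, a subunit of the tRNA synthetase complex, had 13.6, 13.9 and 15.4 RPKM on day 14 and 35.5, 39.3 and 1.49 on day 7. Cd8a likewise differed within day 7, at 17.3 and 16.4 RPKM in replicates 1 and 2 and 42.3 in replicate 3, beside 8.501, 8.01 and 7.08 on day 14. Cd8b1 lay the other way within day 7, at 148.1 RPKM in replicates 1 and 2 and 122.8 in replicate 3. On day 14 Cd8b1 had 32.5, 39.2 and 31.1 RPKM.

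**Figure D4:**
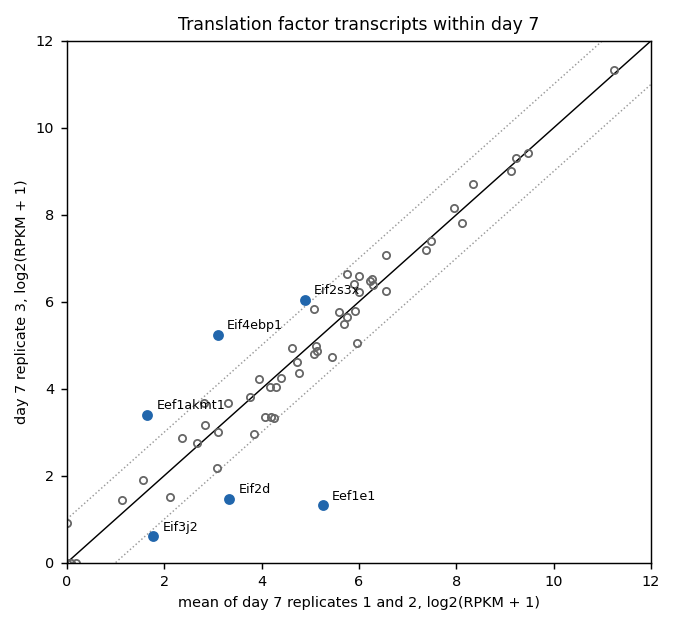
Day 7 replicate 3 against the mean of day 7 replicates 1 and 2, both as log2(RPKM + 1), for the 60 factor genes. The solid line marks equal levels and the dotted lines a difference of 1 on the log2 scale, and named filled points lie outside them. Eif4ebp1 lies above the lines, with 36.9 RPKM in replicate 3, and Eef1e1 below them, with 1.49 RPKM.

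Eif5a, which frees stalled ribosomes and carries the modified lysine hypusine, had 73.4, 71.1 and 70.1 RPKM on day 14, against 96.6, 88.2 and 75.3 on day 7. Day 14 lay below all of day 7, with a log2 fold change of -0.22 (SE 0.189, limma, adjusted p = 0.559). Eif6, which keeps the large subunit from joining too early, was at 9.69, 8.96 and 8.84 RPKM on day 14 and 13.1, 13.8 and 6.81 on day 7, with day 14 between the day 7 libraries. Eif5a2, the rare second eIF5A gene, was at 0.629, 0.9502 and 2.27 RPKM on day 14 and 0.1498, 0.128 and 0 on day 7.

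In all, 12 of the 60 genes stayed under the filter: Eef1e1, Eif1b, Eef1akmt1, Eef2kmt, Eif2b1, Eif2b3, Eif4ebp2, Eif4ebp3, Eif3j2, Eif5a2, Eif2c5 and Eif2s3y. Eef1akmt1, a methyltransferase of eEF1A, had 9.67, 9.52 and 9.61 RPKM on day 14 and 3.002, 1.28 and 9.54 on day 7, another gene in which day 7 replicate 3 stood with day 14. Eef1a2, the muscle and brain form of eEF1A, has no row in the tables and was not analysed here.

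Genes that act with the factors were read from lists of termination and ribosome rescue, the eIF2 kinases and ATF4 axis, mTORC1 and MNK kinases, poly-A binding, hypusine and diphthamide synthesis, and mitochondrial translation. Of 63 genes in the files 45 were tested and 0 were called, with 6 at an unadjusted p under 0.05 in limma (13.3%, where 19.7% of all genes had one) and 3 higher and 3 lower by limma-voom, which called 19.0% of all genes. In the eIF2 axis (8 tested), Ppp1r15a, the phosphatase subunit known as GADD34, had 124.2, 128.0 and 125.0 RPKM on day 14, against 166.5, 169.3 and 202.3 on day 7. The groups were separate, with a log2 fold change of -0.55 (SE 0.145, limma, adjusted p = 0.0564). Atf4, the transcription factor made when eIF2 is phosphorylated, overlapped, with 159.7, 125.1 and 128.7 RPKM on day 14 and 151.1, 138.0 and 140.5 on day 7. In the mTORC1 list (10 tested), Pdcd4, an inhibitor of the eIF4A helicase, had 42.4, 44.4 and 48.0 RPKM on day 14 and 63.4, 59.4 and 99.1 on day 7 (log2 fold change -0.78, SE 0.229, limma, adjusted p = 0.0818). Mknk2, a kinase of eIF4E, had 12.3, 14.3 and 13.0 RPKM on day 14 and 8.06, 8.39 and 2.91 on day 7 (log2 fold change 1.24, SE 0.474, limma, adjusted p = 0.183).

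The termination list (7 tested) held the release factors Etf1 and Gspt1 and the rescue factor Hbs1l. Etf1 had 46.5, 44.2 and 46.5 RPKM on day 14, against 30.2, 27.3 and 30.5 on day 7, with separate groups and a log2 fold change of 0.61 (SE 0.249, limma, adjusted p = 0.205). Gspt1 had 45.8, 47.1 and 46.7 RPKM on day 14 and 19.2, 18.0 and 40.5 on day 7 (log2 fold change 0.74, SE 0.299). Hbs1l was lower in each day 14 library, at 12.1, 9.66 and 9.91 RPKM on day 14 and 19.0, 19.5 and 19.9 on day 7 (log2 fold change -0.84, SE 0.336, limma, adjusted p = 0.2002). The hypusine and diphthamide list had 2 tested genes. Among 10 tested genes of poly-A binding, Pabpc1, the main poly-A-binding protein, was at 313.3 ± 20.4 RPKM on day 14 (SD, n = 3) and 329.0 ± 33.1 on day 7 (SD, n = 2). Tufm, the mitochondrial counterpart of eEF1A and 1 of 8 tested mitochondrial genes, had 33.5, 36.6 and 31.5 RPKM on day 14 and 41.1, 39.7 and 46.2 on day 7 (log2 fold change -0.34, SE 0.243, limma, adjusted p = 0.472). Per T cell transcript all 45 were called higher.

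The promoters of the factors were searched for CACGTG, the E-box that MYC and MAX bind and that is known from promoters of several translation factor genes. The motif reads the same on both strands. It was searched in RefSeq promoters on GRCm38.p6, from 250 bases before to 50 after the start, of which 46 matched factor genes by symbol and chromosome. The motif was in 10 of 46 (21.7%) and in 8 of the 38 tested factors (21.1%), against 539 of 5071 genes tested (10.6%) and 1265 of 14156 genes with a promoter (8.94%). Windows of 60 bases are shown for 5 factors with the motif, with CACGTG in capitals, because they carry the letters that the share counts. None of these 5 factors was called in the main fit. Eef2 and Eif3f had a log2 fold change below 0 (-0.08 and -0.41), and Eif4g1, Eif4h and Eef2k above 0 (0.61, 0.73 and 0.22). Limma's interval spans 0 in all of them except Eif4g1, so these signs do not sort the promoters by direction. The motif begins 43 bases before the start in Eef2, 54 in Eif4g1, 96 in Eif4h, 68 in Eif3f and 31 in Eef2k. The RefSeq start of Eif4g1 lies 4414 bases from the 5′ end of the gene in the deposited tables.
Eef2 (chr10:81176561-81176620, plus strand): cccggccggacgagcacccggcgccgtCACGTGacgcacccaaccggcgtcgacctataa
Eif4g1 (chr16:20672646-20672705, plus strand): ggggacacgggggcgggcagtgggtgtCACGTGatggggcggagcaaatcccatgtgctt
Eif4h (chr5:134639473-134639532, minus strand): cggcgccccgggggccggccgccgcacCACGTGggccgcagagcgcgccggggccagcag
Eif3f (chr7:108934320-108934379, plus strand): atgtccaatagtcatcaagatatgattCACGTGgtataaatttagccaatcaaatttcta
Eef2k (chr7:120842771-120842830, plus strand): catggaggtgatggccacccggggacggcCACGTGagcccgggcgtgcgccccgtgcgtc
The RefSeq promoters of Eef1a1, Eif2s2, Eif5b and Eif4e held no CACGTG, and in Eif3a it lay only after the start. For Eef1a1 the RefSeq start lies 7427 bases from the 5′ end of the gene in the deposited tables.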

How the data were processed

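Reads of 6 libraries were trimmed with Trimmomatic 0.36 and counted with featureCounts of Subread 1.5.1 on GRCm38, per the submitters' processing notes. Not given in the sources used here are the aligner, the strand setting, the use of molecular identifiers and the treatment of reads with several matches. The authors deposited RPKM for 26754 genes, with gene lengths and coordinates per the file headers. RPKM times length gave whole reads for every gene, deviating by at most 4.05e-05 reads, against a tolerance of 0.001. Most low read numbers were even, so both mates of a pair appear to have been counted.

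limma 3.58.1 in R 4.3.3 was fitted to log2(RPKM + 1) with a term for day in 5 samples, day 7 replicates 1 and 2 being averaged. Fold changes are on that scale, which understates those of low genes. Genes needed a mean of 20 CPM. Weights were the inverse of the variance that a loess curve over mean level gave for each day (span 0.3, floor 0.005). Moderated tests used a trend, and an adjusted p under 0.05 was a call. limma-voom on the recovered reads was an alternative. The statistics were tested on simulated data. These held noise of a set size per sample and no spread particular to a gene. The test therefore does not give the error rate in the real libraries. The members, roles and gene lists were chosen with earlier results of these data known. Named genes are the call, factors named in the design, the 5 uncalled factors with the smallest p, and others named after values were seen. Some of these others were named for their role or level. Others had an unadjusted p under 0.05 in limma, namely Eif3m, Eif4e3, Eif3h, Ppp1r15a, Pdcd4, Mknk2, Etf1, Gspt1 and Hbs1l. No pairing of same-numbered replicates across days was seen, and the main fit holds no replicate block. Overlapping gene models can hold the same reads. Promoter sequences are from RefSeq, and promoters of genes with no match were not used here.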

Additional observations from a re-analysis of the deposited data

How the results depend on the processing

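The count of calls moved with the settings, and the counts for all genes, factors and pathway genes follow in that order. They were 329, 1 and 0 as reported, 317, 1 and 0 with a pseudocount of 0.1, 1894, 3 and 3 with no filter, 484, 6 and 2 at 50 CPM, and 1011, 9 and 4 without weights. They were 505, 4 and 2 with weights from the fourth root of variance, an alternative added after seeing the data. The 6 libraries counted singly gave 1599, 11 and 8, median-of-ratios factors 357, 2 and 2, scaling per T cell transcript 6302, 48 and 45, and limma-voom 1268, 9 and 6. Day 7 replicate 3 alone, also added after seeing the data, gave 120, 1 and 0. Leaving out 1 library at a time gave 144 to 338 genes, 0 to 2 factors and 0 pathway genes, lowest for all genes without day 7 replicate 3. The 9 factors called without weights and the 9 called by limma-voom both hold Eef1a1, Eif3a, Eif5b, Eif2s2, Eef1g, Eif1ad, Eif3m and Eif4g1. The replicate block with 6 libraries gave 1169, 11 and 4. Correlations of same-numbered deviations were -0.0145, -0.0148 and -0.0341, so no pairing of the numbers was seen. Day 7 replicates 1 and 2 were nearly alike, so this check says little about their numbers.

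Among the factors singled out by the naming rule, directions turned per T cell transcript in Eef1a1 (1.51), Eif4a2 (1.66), Eif5a (1.61), Eif6 (1.61), Eef2 (1.78), Eef1g (1.47) and Eif1ad (0.85), with median-of-ratios factors in Eif4a1 (-0.16), Eif2b5 (-0.13) and Eef1b2 (-0.12), and against day 7 replicate 3 alone in Eif4a1 (-0.027), Eif4ebp1 (-0.39), Eif2s3x (-0.28), Eif6 (0.38) and Eef1b2 (-0.12). With 1 library left out, Eif4a1 ran from -0.0012 (without day 14 replicate 1) to 0.078, Eif2s1 from -0.16 (without day 7 replicate 3) to 0.32, and Eif2b5 from -0.30 (without day 7 replicate 3; -0.026 without day 14 replicate 2) to 0.13. Eif2b5 was -0.063 with 6 libraries, with or without the replicate block. Other factors turned too: 9 more per T cell transcript, 5 more with median-of-ratios factors (among them Eif3c, Eif3g, Eif4b and Eif4g3), 4 more with 6 libraries (with or without the block), 1 more by limma-voom, 8 more without day 7 replicate 3, Eef1d or Eif1ax without some other libraries, and against that replicate alone Eif3b and Eif3i. The factors' summed share of reads differed by 0.0846 percentage points between days, and by 0.216 without Eef1a1. The causes were not tested. Depth limits the low genes most, and with n = 2 on day 7 a missing call does not show equal levels.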

Other observations

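Rows named as pseudogenes were not among the factors. Of these, Eif4a-ps4 had 3.89, 5.23 and 3.45 RPKM on day 14, and 11.95 and 11.99 in day 7 replicates 1 and 2 but 2.77 in replicate 3. Eif5al3-ps was listed at 0 in all 6 libraries.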
